A study of Mus musculus with 6 samples.

Results

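The transcripts described here are those of *Trp53*, which encodes the transcription factor p53, of its inhibitors *Mdm2* and *Mdm4*, and of 6 of its target genes, *Ccng1*, *Phlda3*, *Trp53inp1*, *Zmat3*, *Aen* and *Sesn1*. They were chosen by name for their place in the p53 pathway and make up 9 of the 54525 genes in the count table, and 9 of 9 were among the 13605 genes with enough counts to be tested. RNA was sequenced from CD4+ T cells of lymph nodes and spleen of C57BL/6N mice aged 6-8 weeks, 3 samples from WT and 3 from *Abat* cKO. In *Abat* cKO mice the GABA transaminase gene *Abat* was deleted by Cre driven from *Cd4*, which acts in every T cell that has passed through the *Cd4*-expressing stage. All samples were TH0 cells, activated on plate-bound anti-CD3 and anti-CD28 with IL-2 and without polarising cytokines for 36 h. WT and *Abat* cKO mice came as separate lines and were cultured separately, so that genotype, line and culture cannot be told apart.

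p53 binds DNA and switches on genes that halt the cell cycle, repair DNA, restrain growth or start apoptosis. In unstressed cells it is kept scarce by MDM2, a ubiquitin ligase that marks p53 for degradation and whose own gene is a p53 target, and it is held inactive by the related protein MDM4. The amount and activity of p53 are set largely on the protein, so that the level of its targets and the level of *Trp53* mRNA are separate measures. In mice, loss of p53 leads to thymic lymphoma, and in CD4+ T cells p53 restrains division after antigen stimulation.

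p53 recognises a pair of copies of a 10-base element, so the windows around the members' start sites are shown first. RefSeq windows (build GRCm38.p6) covering 250 bases before to 50 bases after a start site were matched for 7 of the 9 genes, in 10 windows. *Trp53inp1* and *Zmat3* were not matched. The 10-base p53 element, searched by its consensus, which reads the same on both strands, was found in 6 of these 10 windows (5 of 7 genes), against 7 of 43 windows of the other p53 targets listed further on and 2745 of all 32851 windows (8.36%). A pair of elements with at most 1 base between them and at most 2 mismatches in all, none of them in the C and G of the CNNG core, was found in 1 member window, that of *Ccng1*, against 224 of all windows (0.682%). The windows of *Aen* overlap and share 1 element, and the single element of *Ccng1* lies inside its pair and is counted in both. The windows of *Trp53*, *Mdm2*, *Ccng1* and *Phlda3* are given because they show the factor, the inhibitor that is also its target, the target with a pair and a target without any element, with matched bases in capitals. They lie at chr11:69580109-69580408 on the plus strand, chr10:117710709-117711008 on the minus strand, chr11:40755237-40755536 on the minus strand and chr1:135765835-135766134 on the plus strand, in that order.
*Trp53*: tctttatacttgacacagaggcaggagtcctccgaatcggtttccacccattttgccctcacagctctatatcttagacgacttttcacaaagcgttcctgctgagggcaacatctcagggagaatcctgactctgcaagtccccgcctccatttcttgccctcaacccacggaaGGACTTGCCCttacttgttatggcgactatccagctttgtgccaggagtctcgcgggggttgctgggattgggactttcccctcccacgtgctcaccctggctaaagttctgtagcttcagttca
*Mdm2*: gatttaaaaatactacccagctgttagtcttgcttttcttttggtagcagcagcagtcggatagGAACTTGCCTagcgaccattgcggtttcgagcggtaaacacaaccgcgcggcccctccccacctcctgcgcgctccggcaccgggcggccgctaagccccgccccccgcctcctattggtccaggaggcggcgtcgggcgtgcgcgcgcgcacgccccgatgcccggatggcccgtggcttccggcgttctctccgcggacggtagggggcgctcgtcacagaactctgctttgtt
*Ccng1*: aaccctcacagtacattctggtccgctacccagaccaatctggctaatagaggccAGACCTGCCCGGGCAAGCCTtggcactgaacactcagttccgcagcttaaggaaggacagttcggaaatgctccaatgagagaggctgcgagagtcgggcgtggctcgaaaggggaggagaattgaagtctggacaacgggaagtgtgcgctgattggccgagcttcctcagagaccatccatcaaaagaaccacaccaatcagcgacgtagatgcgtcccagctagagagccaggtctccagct
*Phlda3*: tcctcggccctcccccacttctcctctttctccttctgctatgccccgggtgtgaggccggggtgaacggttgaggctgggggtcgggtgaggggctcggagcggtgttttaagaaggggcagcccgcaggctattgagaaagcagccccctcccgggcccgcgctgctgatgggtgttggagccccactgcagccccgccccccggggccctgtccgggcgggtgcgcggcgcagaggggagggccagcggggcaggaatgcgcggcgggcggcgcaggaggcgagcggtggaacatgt

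The *Ccng1* pair began at -195 from the start site and had 1 mismatch, whereas the single element of *Mdm2* began at -186 and that of *Trp53* at -75. No element was found in the *Phlda3* window. For comparison, 3 windows of the other targets held a pair, and these sites are printed below with any base between the elements in lower case. The *Cdkn1a* pair began at -51 of its window (chr17:29090729-29091028, plus strand) with 1 mismatch, the *Rps27l* pair at -117 (chr9:66946163-66946462, plus strand) with 1 mismatch, and the *Bax* pair at -201 (chr7:45466849-45467148, minus strand) with 2 mismatches. A match describes the letters of a window and is not a measurement of binding. Sequence outside the windows was not searched, so a window without an element or pair does not show that the gene has none.
*Cdkn1a*: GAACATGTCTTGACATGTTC
*Rps27l*: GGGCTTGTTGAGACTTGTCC
*Bax*: AGGCAAGCTTtGAACTTGCGG

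Total gene counts ranged from 19566016 to 24396746 a sample. Values are CPM (gene counts relative to a TMM-scaled library total), and differences are log2 fold changes of *Abat* cKO over WT from edgeR's quasi-likelihood test, with p-values adjusted over all 13605 genes. At an adjusted p under 0.05, 4291 genes (31.5%) differed between the genotypes, 2464 (18.1%) higher and 1827 (13.4%) lower in *Abat* cKO. Of the 7765 genes at or above the average level of the lowest member 2973 (38.3%) were called. *Abat* itself had 0 to 7 counts a sample, too few to check the genotype labels. The libraries were not uniform, with WT replicate 3 and *Abat* cKO replicate 1 apart from the other 4 on the second principal component. In *Abat* cKO replicate 1, genes longer than 7000 bases lay a median of 0.17 (log2) above the other *Abat* cKO samples and genes of up to 2000 bases 0.08 below (a median of -0.08). B cell markers summed to 244.7 to 269.4 CPM in WT and 100.7 to 105.3 CPM in *Abat* cKO, with 7 of the 8 tested lower, and CD4 T cell markers to 3240 to 3306 CPM and 2862 to 2957 CPM, with 5 of 8 lower. Summed NK cell markers overlapped, at 6.29 to 25.7 CPM and 18.8 to 23.5 CPM, with 3 of the 5 tested higher and 1 lower. CD8 T cell markers summed to 7.5 to 24.2 CPM in WT and 5.62 to 6.49 CPM in *Abat* cKO, and gamma delta T cell markers to 2.61 to 4.61 CPM and 8.07 to 8.32 CPM. The part of these cells in the values below was not tested, and in bulk RNA fewer cells of a type cannot be told apart from less RNA per cell.

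The p53 genes moved in both directions. Of the 9 genes, 3 rose in *Abat* cKO (*Phlda3*, *Zmat3* and *Mdm2*), 3 fell (*Trp53inp1*, *Sesn1* and *Trp53*) and 3 did not pass the test (*Ccng1*, *Aen* and *Mdm4*). The share called was 66.7%, beside 31.5% of all genes tested and 38.3% of those at or above the average level of the lowest member. Calls in both directions were general, with 18.1% of all genes tested higher and 13.4% lower. Changes of the 9 genes ranged from -0.70 to 0.46 with a median of -0.04, beside a median of 0.00 over all genes tested. WT and *Abat* cKO samples did not overlap for 7 of the 9, a separation seen in 45.9% of all genes tested.

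**Figure D1:**
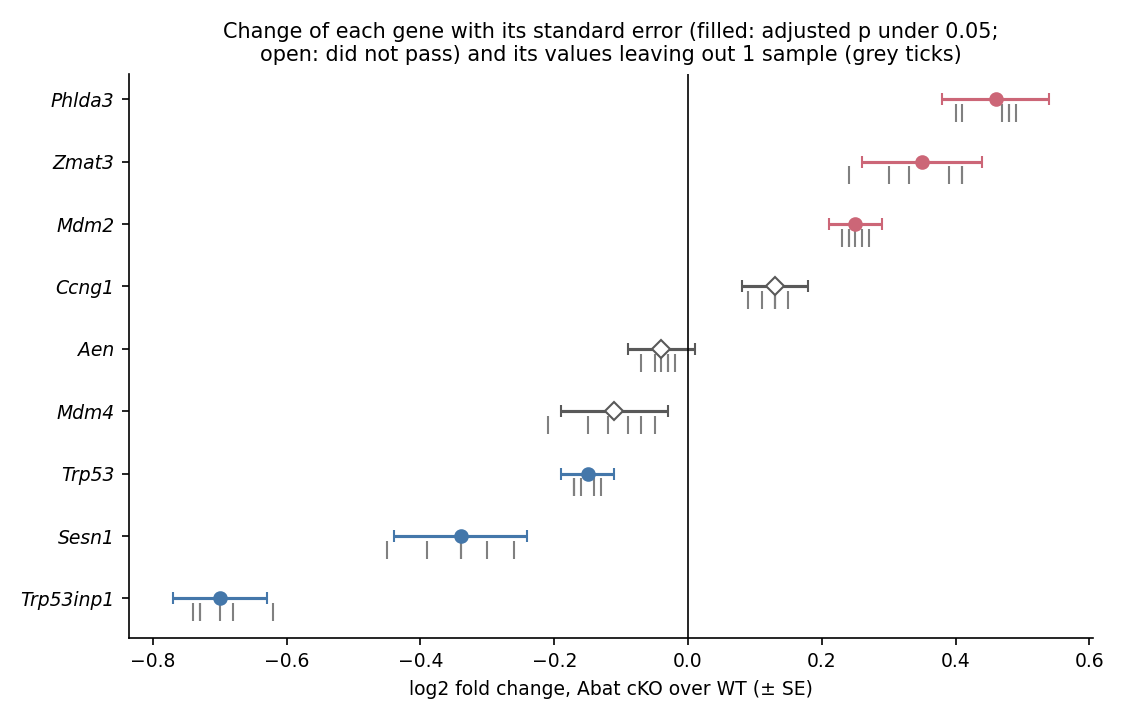
Log2 fold change of each gene, *Abat* cKO over WT, with its standard error (x axis); filled circles passed at an adjusted p under 0.05, open diamonds did not, and grey ticks give the value with 1 sample left out. The genes run from -0.70 for *Trp53inp1* to 0.46 for *Phlda3*, and no tick crosses 0.

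*Trp53* (chr11:69580359-69591873, plus strand, GRCm38) was slightly lower in *Abat* cKO. It measured 198.8, 187.6 and 190.7 CPM in WT replicates 1, 2 and 3 and 169.2, 175.2 and 174.3 CPM in the *Abat* cKO replicates. Every *Abat* cKO sample was below every WT sample. The means were 192 ± 5.78 CPM and 173 ± 3.23 CPM (SD, n = 3 each), a log2 fold change of -0.15 (SE 0.04, edgeR adjusted p = 0.018), or 0.899-fold. The call was lost without WT replicate 1 (-0.13, adjusted p = 0.092) and without *Abat* cKO replicate 2 (-0.16, adjusted p = 0.052), and when libraries were scaled to their spike-in RNA (-0.20, adjusted p = 0.26). Its processed pseudogene *Trp53-ps*, whose reads could be mistaken for those of *Trp53*, had 2 to 11 counts a sample.

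*Mdm2* (chr10:117688875-117710758, minus strand) rose while *Trp53* fell. WT samples held 87.3, 90.6 and 90.6 CPM and *Abat* cKO samples 109, 104 and 106.9 CPM. The lowest *Abat* cKO sample stood well above the highest WT sample. Means of 89.5 ± 1.89 CPM and 107 ± 2.49 CPM (SD, n = 3 each) gave a log2 fold change of 0.25 (SE 0.04, edgeR adjusted p = 0.0011), or 1.191-fold. The call stood with any 1 sample left out (0.23 to 0.27) but not under spike-in scaling (0.21, adjusted p = 0.23).

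*Mdm4* (chr1:132959484-133030561, minus strand), which binds p53 without being a strong ligase itself, was not called. Its values were 173, 167.2 and 188.2 CPM in WT and 185.5, 158.2 and 145.4 CPM in *Abat* cKO. The groups overlapped because *Abat* cKO replicate 1 lay among the WT samples, whereas the other 2 lay below them. The log2 fold change was -0.11 (SE 0.08, edgeR adjusted p = 0.35), with means of 176 ± 10.9 CPM and 163 ± 20.5 CPM (SD, n = 3 each). Without *Abat* cKO replicate 1, the library in which long genes read high, it was -0.21 (adjusted p = 0.015). The *Mdm4* transcript model is 7105 bases long, and the part of gene length in its spread was not tested.

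The balance of *Mdm2* to p53 transcripts, taken as a ratio of counts within each sample and therefore free of library scaling, was 0.439, 0.483 and 0.475 in WT and 0.644, 0.594 and 0.613 in *Abat* cKO. The groups did not overlap. Mean ratios were 0.466 ± 0.0233 and 0.617 ± 0.0253 (SD, n = 3 each), a log2 difference of 0.41 with a two-sided exact permutation p of 0.1, the smallest that 3 against 3 samples allow. Between the inhibitors, the *Mdm2* to *Mdm4* ratio was 0.505, 0.542 and 0.481 in WT and 0.587, 0.658 and 0.735 in *Abat* cKO, again without overlap. This log2 difference was 0.37, also with an exact permutation p of 0.1, and leaving out 1 sample at a time gave 0.29 to 0.45, against 0.36 to 0.43 for the ratio to *Trp53*. The gene models of *Mdm2* and *Mdm4* differ in length, at 3145 and 7105 bases. *Abat* cKO replicate 1, in which long genes read high, had the lowest *Mdm2* to *Mdm4* ratio of its genotype (0.587), and the part of length was not tested.

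**Figure D2:**
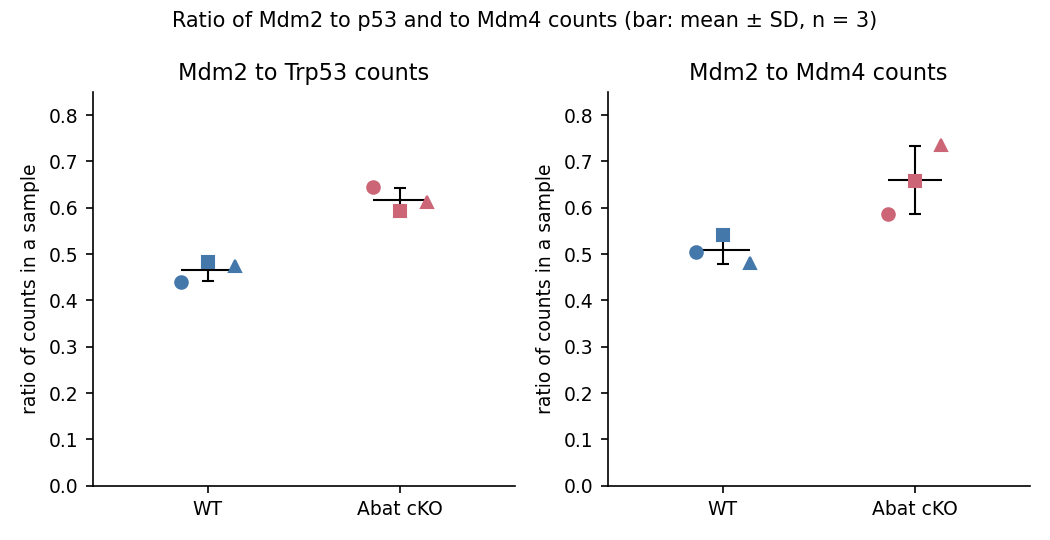
Ratio of *Mdm2* to *Trp53* counts (left) and of *Mdm2* to *Mdm4* counts (right) in each sample (y axis, no unit); circles, squares and triangles are replicates 1, 2 and 3 and bars the mean ± SD (n = 3). The *Abat* cKO samples lie above the WT samples in both panels, at 0.594 to 0.644 against 0.439 to 0.483 on the left.

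Among the targets, *Phlda3* (chr1:135766119-135769136, plus strand) had the largest rise of the 6. The gene encodes a small protein that competes with AKT for membrane lipids and so restrains AKT signalling. Its values were 11.4, 12.9 and 13.2 CPM in WT and 18.3, 16.9 and 16.2 CPM in *Abat* cKO. No *Abat* cKO sample came near the WT samples. The means were 12.5 ± 0.958 CPM and 17.1 ± 1.03 CPM (SD, n = 3 each), with a log2 fold change of 0.46 (SE 0.08, edgeR adjusted p = 0.0019), or 1.373-fold. The call also passed under spike-in scaling (0.41, adjusted p = 0.01).

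*Zmat3* (chr3:32334792-32366014, minus strand), a zinc-finger protein that binds RNA and affects splicing and mRNA stability, rose with a wider spread. Levels were 77.6, 81.7 and 92.3 CPM in WT and 123.6, 102.1 and 95.5 CPM in *Abat* cKO. The groups did not overlap, although *Abat* cKO replicate 3 was only slightly above WT replicate 3, and *Abat* cKO replicate 1 was the highest. Means were 83.9 ± 7.55 CPM and 107 ± 14.7 CPM (SD, n = 3 each), and the log2 fold change was 0.35 (SE 0.09, edgeR adjusted p = 0.016), or 1.277-fold. The call was lost without WT replicate 1 (0.30, adjusted p = 0.074) and without WT replicate 2 (0.33, adjusted p = 0.062). The gene model spans 7797 bases, among the long genes that read high in *Abat* cKO replicate 1. Without that sample the change was 0.24 (adjusted p = 0.019).

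*Ccng1* (chr11:40748552-40755311, minus strand) encodes cyclin G1, which recruits a phosphatase to MDM2 and is among the most strongly p53-dependent transcripts in mouse tissues. Samples held 212.2, 233.4 and 229.9 CPM in WT and 252, 244.7 and 240.9 CPM in *Abat* cKO. All *Abat* cKO samples were above all WT samples, but by less than the range within WT. The log2 fold change of 0.13 (SE 0.05) did not pass the test (edgeR adjusted p = 0.065), with means of 225 ± 11.3 CPM and 246 ± 5.67 CPM (SD, n = 3 each). The value passed, at 0.12 (adjusted p = 0.02), once WT replicate 3 and *Abat* cKO replicate 1 were both left out, a choice made after the data were seen that raised calls over the whole table from 4291 to 5164.

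*Trp53inp1* (chr4:11156431-11174379, plus strand) showed the greatest change of the 9 genes and fell. Its product acts in the nucleus as a p53 cofactor that favours apoptosis and in the cytoplasm in autophagy. The samples measured 129.9, 127.4 and 152.1 CPM in WT and 87.9, 81.8 and 82.7 CPM in *Abat* cKO. The *Abat* cKO samples were close together and far below WT. The mean went from 136 ± 13.6 CPM to 84.1 ± 3.28 CPM (SD, n = 3 each), a log2 fold change of -0.70 (SE 0.07, edgeR adjusted p = 3.5e-05), or 0.617-fold. It remained called with any 1 sample left out, at -0.74 to -0.62.

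*Sesn1* (chr10:41809935-41908424, plus strand), a sestrin that restrains mTORC1 in response to stress and amino acid supply, also fell. Its levels of 21.5, 20 and 22.9 CPM in WT compared with 19.4, 15 and 16.5 CPM in *Abat* cKO. The groups did not overlap, but *Abat* cKO replicate 1 was just below WT replicate 2. Means were 21.5 ± 1.47 CPM and 16.9 ± 2.23 CPM (SD, n = 3 each), giving a log2 fold change of -0.34 (SE 0.10, edgeR adjusted p = 0.021), or 0.790-fold. The call was lost without WT replicate 1 (-0.34, adjusted p = 0.062) and without *Abat* cKO replicate 2 (-0.26, adjusted p = 0.087).

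*Aen* (chr7:78895854-78911209, plus strand), a nuclease that digests nucleic acids during apoptosis, was not called. Values of 79.3, 83.2 and 85.8 CPM in WT and of 80.3, 82.3 and 79.6 CPM in *Abat* cKO overlapped. Means were 82.8 ± 3.26 CPM and 80.7 ± 1.39 CPM (SD, n = 3 each), with a log2 fold change of -0.04 (SE 0.05, edgeR adjusted p = 0.6).

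**Figure D3:**
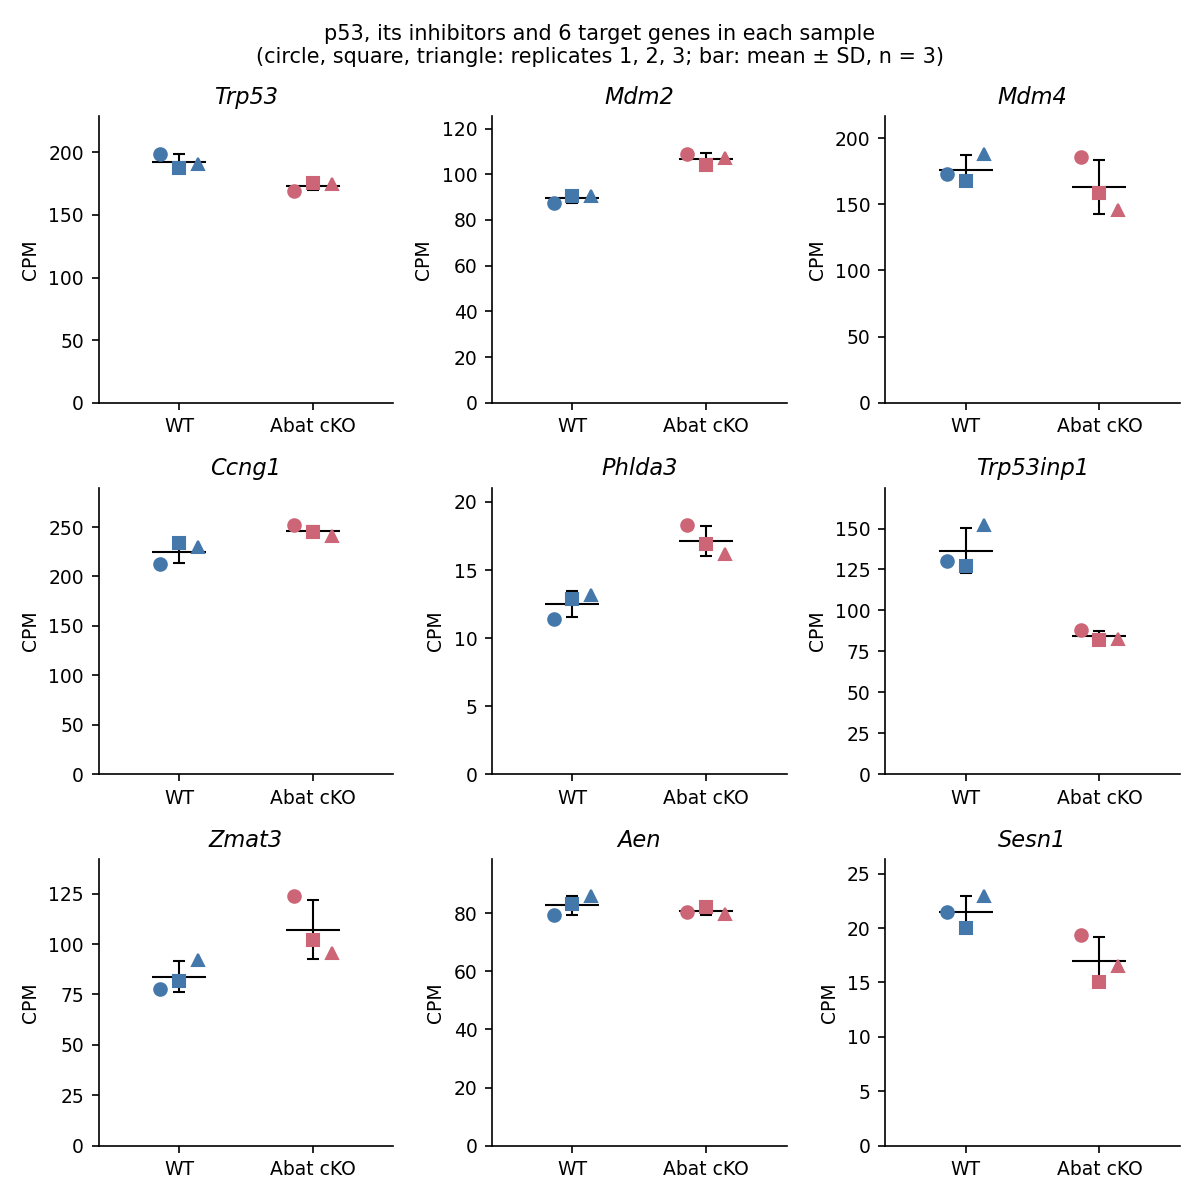
TMM-scaled CPM (y axis, from 0) of each gene in the 3 WT (blue) and 3 *Abat* cKO (red) samples; circles, squares and triangles are replicates 1, 2 and 3 and bars the mean ± SD (n = 3). Only *Mdm4* and *Aen* overlap between the genotypes, and the *Trp53inp1* samples lie well apart, at 127.4 to 152.1 against 81.8 to 87.9 CPM.

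Divided by the length of each gene model, the levels could be ordered. In WT, *Ccng1* was highest at 64.1 CPM per kilobase, followed by *Trp53* (58.7), *Mdm2* (28.4), *Trp53inp1* (25.1), *Mdm4* (24.8), *Aen* (16.7), *Zmat3* (10.8), *Phlda3* (8.69) and *Sesn1* (5.63). Sample ranges overlapped between *Ccng1* and *Trp53*, between *Mdm2* and *Trp53inp1* and between *Trp53inp1* and *Mdm4*, and not between the other neighbours. In *Abat* cKO, *Ccng1* (70.0) and *Trp53* (52.8) no longer overlapped. *Trp53inp1* stood above both *Mdm4* and *Aen* in WT and, at 15.5 CPM per kilobase, below them in *Abat* cKO, with *Mdm4* at 22.9 and *Aen* at 16.3, although its range overlapped that of *Aen*. *Zmat3* (13.7) and *Phlda3* (11.9) overlapped each other, as did *Trp53inp1* and *Zmat3*, *Mdm2* was at 33.9, and *Sesn1* was lowest at 4.45.

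**Figure D4:**
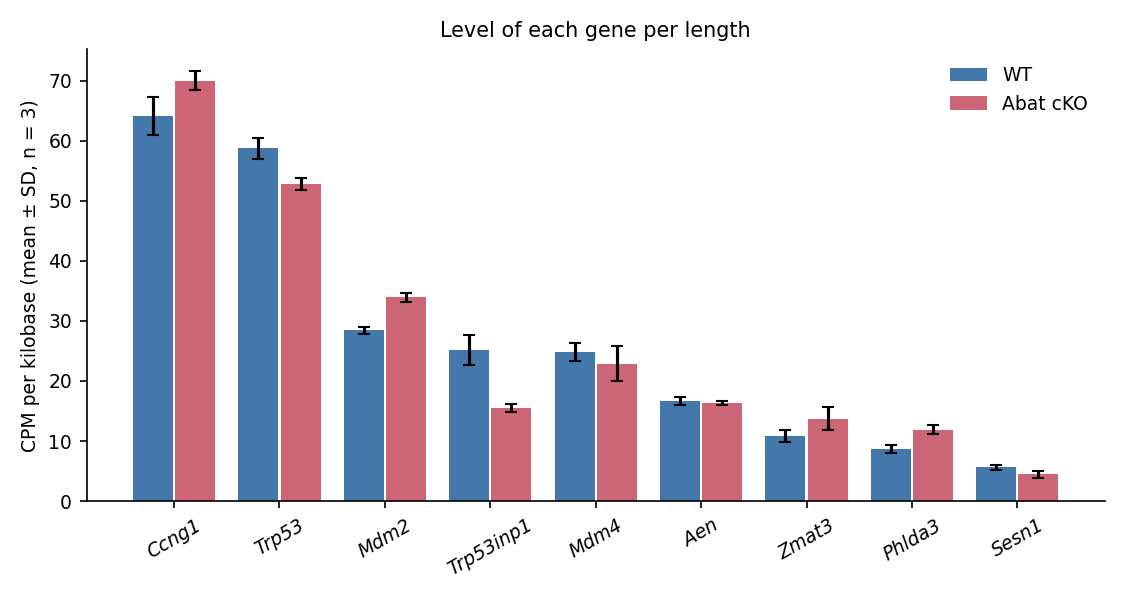
Level of each gene divided by its gene model length (y axis, TMM-scaled CPM per kilobase, from 0), as mean ± SD of 3 WT (blue) and 3 *Abat* cKO (red) samples. *Ccng1* and *Trp53* stand far above the others, and *Trp53inp1* drops from 25.1 in WT to 15.5 in *Abat* cKO.

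The wider pathway was described with lists of p53 regulators and of other p53 targets by function. Of 43 tested among 46 other targets, 16 rose, 3 fell and 24 did not pass, with a median log2 fold change of 0.11. This call rate of 44.2% stood beside 31.5% of all genes tested and 66.7% of the 9 members. Among genes at or above the average level of the lowest member, 38.3% were called.

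Cell cycle targets moved upward where they were called. Of 7 tested of 8 listed, 3 rose and none fell, with a median of 0.31. Their call rate was 42.9%, beside 31.5% of all genes tested and 38.3% of those at or above the average level of the lowest member. Over all genes tested, 18.1% were called higher and 13.4% lower. *Cdkn1a*, which encodes the cyclin-dependent kinase inhibitor p21, measured 29.9, 30.4 and 34.9 CPM in WT and 68.4, 61.5 and 60 CPM in *Abat* cKO, so that the groups lay far apart. Means of 31.8 ± 2.76 CPM and 63.3 ± 4.45 CPM (SD, n = 3 each) gave a 1.99-fold rise (SE 0.07 on the log2 scale, edgeR adjusted p = 4.2e-06). *Sfn*, encoding 14-3-3 sigma, rose by 0.69 (edgeR adjusted p = 2.9e-05) and the antiproliferative gene *Btg2* by 0.31 (adjusted p = 0.0026). *Gadd45a* (0.38, adjusted p = 0.066) and *Plk2* (-0.14, adjusted p = 0.24) did not pass. A list of G2 and mitosis genes known to be repressed through p21 and the DREAM complex was also read. It was written when G2 and mitosis genes were already known to be higher in these data. Of its genes 16 of 16 rose, beside 18.1% of all genes tested. The changes ran from 0.47 to 1.42 with a median of 0.69, among them *Ccnb1* (1.13), *Ccnb2* (1.42), *Cdc20* (1.04) and *Plk1* (1.36).

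Of 13 apoptosis targets tested of 14 listed, 5 rose, none fell and 8 did not pass, with a median of 0.04. The share called was 38.5%, beside 31.5% of all genes tested and 38.3% of those at or above the average level of the lowest member. *Bbc3*, encoding the BH3-only protein PUMA, measured 12.4, 11.4 and 13 CPM in WT and 19.5, 18.9 and 18.9 CPM in *Abat* cKO. This was a clear separation, with a log2 fold change of 0.64 (SE 0.07, edgeR adjusted p = 9.8e-05). *Trp53i11* (0.65, adjusted p = 0.00049), the death receptor gene *Tnfrsf10b* (0.38, adjusted p = 0.0005) and *Apaf1*, encoding the scaffold of the apoptosome (0.26, adjusted p = 0.0085), rose too. The other best known death targets did not pass, with *Bax* at 0.07 (adjusted p = 0.41), *Pmaip1*, encoding NOXA, at -0.18 (adjusted p = 0.41) and the death receptor gene *Fas* at -0.19 (adjusted p = 0.29). *Perp*, named for the smallest adjusted p among the listed genes with a negative change, did not pass either (-0.45, adjusted p = 0.14). Its means were low, at 2.19 CPM in WT and 1.61 CPM in *Abat* cKO.

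DNA repair targets gave 4 higher and none lower of 10 tested, with a median of 0.11. The share called was 40%, beside 31.5% of all genes tested and 38.3% of those at or above the average level of the lowest member. The 4 higher genes were *Rrm2b*, a ribonucleotide reductase subunit (0.36, edgeR adjusted p = 0.0016), *Rps27l* (0.16, adjusted p = 0.014), the polymerase *Polk* (0.28, adjusted p = 0.021) and *Mgmt* (0.48, adjusted p = 0.039). Only *Rrm2b* stayed called with any 1 sample left out. *Rps27l* lost its call without WT replicate 1 or 3 or *Abat* cKO replicate 2 or 3 (0.13 to 0.17, edgeR adjusted p = 0.051 to 0.1), and *Polk* without WT replicate 1 or 2 (0.27 and 0.24, adjusted p = 0.07 and 0.081). *Mgmt* lost it without WT replicate 1 or 2 or *Abat* cKO replicate 2 or 3 (0.39 to 0.49, adjusted p = 0.088 to 0.15) and did not pass in DESeq2 (adjusted p = 0.13). The damage recognition gene *Xpc* was at -0.05 (adjusted p = 0.63).

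Metabolic targets split, with 4 higher and 3 lower of 13 tested of 14 listed and a median of 0.13. This was a call rate of 53.8%, beside 31.5% of all genes tested. *Sesn2* measured 32.2, 33.1 and 30.1 CPM in WT and 108, 107 and 105 CPM in *Abat* cKO, which was 3.34-fold higher (log2 fold change 1.74, SE 0.05, edgeR adjusted p = 7e-09). *Ddit4*, an inhibitor of mTORC1 also called REDD1, rose by 1.46 (adjusted p = 2.6e-07). Both genes are also targets of ATF4, the transcription factor of the integrated stress response. *Slc19a2*, a thiamine transporter gene (0.42, adjusted p = 0.00054), and *Gls2*, a glutaminase gene (0.58, adjusted p = 0.0025), rose as well. *Ephx1*, encoding an epoxide hydrolase, fell by 0.70 (edgeR adjusted p = 3.5e-05), from 44.2 to 27.1 CPM on average. The other genes that fell, named after their values were seen, were *Fdxr* (-0.29, adjusted p = 0.0039) and *Gpx1* (-0.13, adjusted p = 0.043). With 1 sample left out, 2 to 3 genes of the 4 target lists together fell.

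**Figure D5:**
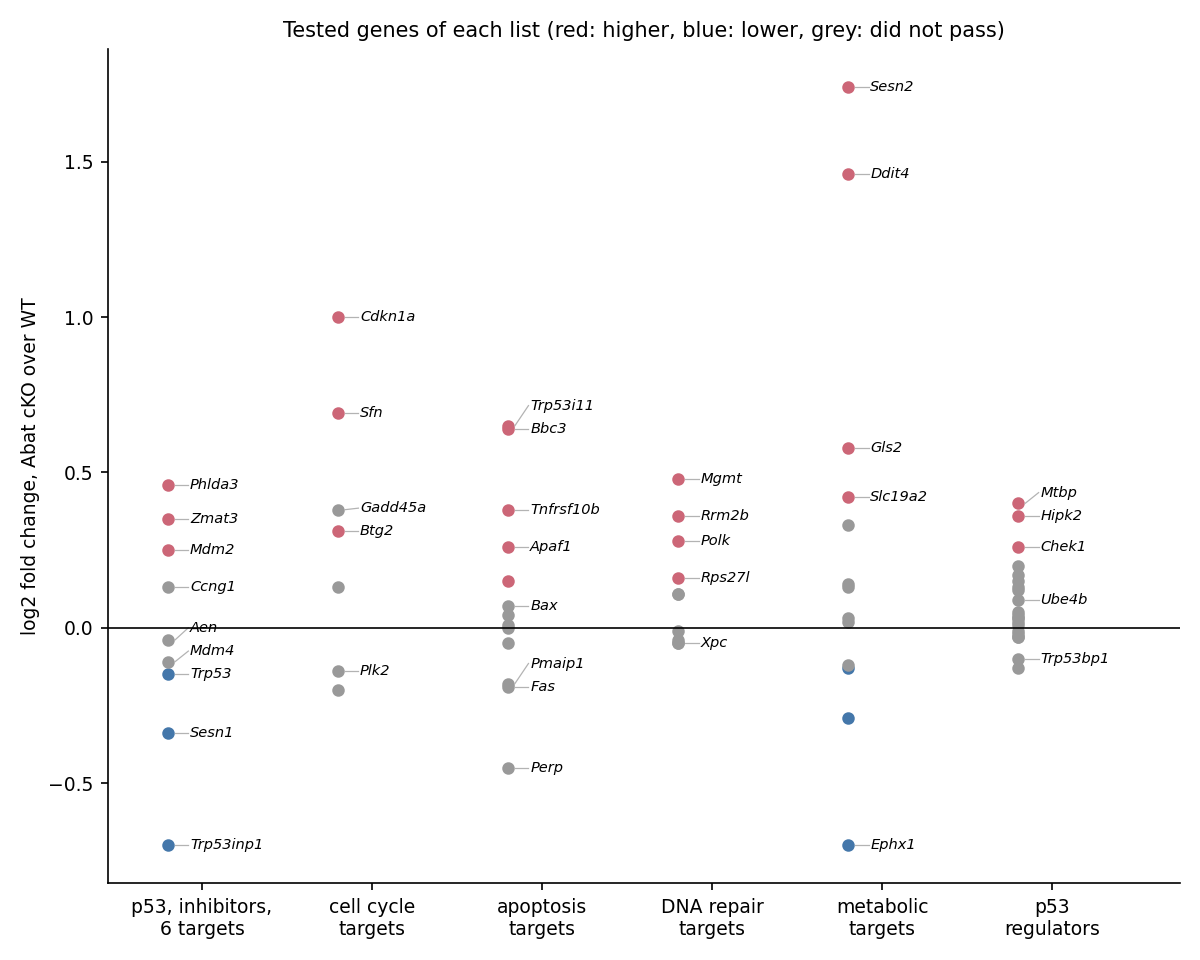
Log2 fold change of *Abat* cKO over WT (y axis) for each tested gene of the p53 group, the 4 lists of other p53 targets and the p53 regulators (x axis); red points rose, blue points fell and grey points did not pass at an adjusted p under 0.05. Blue points occur only in the p53 group and among metabolic targets, and the highest points are *Sesn2* (1.74) and *Ddit4* (1.46).

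Few of the genes that act on p53 were called. Of 21 regulators tested of 24 listed, 3 rose, none fell and 18 did not pass, a call rate of 14.3% beside 31.5% of all genes tested, with a median of 0.04. Those that rose were *Mtbp*, whose product binds MDM2 (0.40, edgeR adjusted p = 0.00014), the checkpoint kinase *Chek1* (0.26, adjusted p = 0.00081) and the kinase *Hipk2* (0.36, adjusted p = 0.0068). *Ube4b*, a ubiquitin ligase for p53 (0.09, adjusted p = 0.17), and *Trp53bp1* (-0.10, adjusted p = 0.19) did not pass, although *Trp53bp1* did without *Abat* cKO replicate 1 (-0.15, adjusted p = 0.022). Leaving out that sample, the library in which long genes read high, gave 2 regulators lower and 3 higher, among 4540 genes called over the whole table. The part of gene length in the values of the regulators was not tested. *Trp63*, *Trp73* and *Cdkn2a* had too few counts to be tested, so that *Trp53* was the only member of its own family in the test.

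Relatives of the targets moved in both directions. Among 11 relatives tested of 12 listed, 2 rose, 5 fell and 4 did not pass, with a median of 0.01. This was a call rate of 63.6%, beside 31.5% of all genes tested. *Sesn2*, *Sesn3* and *Gadd45a* are also in the target lists above and were counted there too. In the sestrins, *Sesn1* fell by 0.34, *Sesn2* rose by 1.74 and *Sesn3* was at 0.03 (edgeR adjusted p = 0.7). *Phlda3* rose by 0.46 whereas *Phlda1* fell by 1.93 (adjusted p = 2.9e-07), from 17.7 ± 1.14 to 4.65 ± 0.29 CPM. *Trp53inp2* fell by 0.64 (edgeR adjusted p = 0.017), the same direction as *Trp53inp1*. *Zmat1* fell by 0.60 (adjusted p = 0.013) while *Zmat3* rose. The *Trp53inp2* call was lost without WT replicate 1 or *Abat* cKO replicate 2 or 3 (-0.65 to -0.57, adjusted p = 0.052 to 0.07), and that of *Zmat1* without WT replicate 1 or 2 or *Abat* cKO replicate 2 (-0.56 to -0.53, adjusted p = 0.055 to 0.061). *Isg20*, an exonuclease gene related to *Aen*, fell by 1.38 (adjusted p = 0.00052). These differences between paralogues were not themselves tested.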

How the data were processed

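RNA of 3 WT and 3 *Abat* cKO samples was sequenced. The authors deposited raw counts per gene, whole numbers that are not normalized, beside normalized counts and their own DESeq2 fold changes and p-values, which were not used. The submitters' processing notes name Trim Galore 0.60, STAR 2.7 and RSEM 1.31, whereas the study's methods name TopHat2 and HTSeq with GRCm38, and which made the counts was not settled. The 92 spike-in rows, 0.817% to 1.003% of counts, were left out.

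The tests used the quasi-likelihood functions of edgeR 4.0.16 under R 4.3.3 (TMM, its filter on low counts, genotype as the sole term, Benjamini-Hochberg adjustment over all 13605 genes tested, threshold 0.05; biological coefficient of variation 0.0589). The script was tested on simulated counts. GENCODE annotation on GRCm38 matched 99.79% of genes and gave no other gene's exons overlapping a member's. The study calls its samples independent, without naming mice, so p-values measure the spread between these samples. Replicates differed by more than sampling noise (chi-square per degree of freedom 2.14 to 9.36).

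The members and lists were chosen with earlier results of these data known. The list of metabolic targets leaves out 1 gene that is not reported here and is in none of the list counts. Beyond members and 6 best known targets, up to 4 genes with the smallest adjusted p in a list's main direction and 1 in the other were named. Alternatives were DESeq2 1.42.0, 3 other scalings, 2 other filters, protein-coding genes alone, a replicate block, a threshold of 0.01, a test against a 1.5-fold change and leaving out each sample.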

Additional observations from a re-analysis of the deposited data

How the results depend on the processing

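The member changes were small, and those of *Trp53*, *Zmat3* and *Sesn1* lost their calls with some single samples left out, whereas *Mdm2*, *Phlda3* and *Trp53inp1* kept theirs. Under a test against a 1.5-fold change no member was called: 0 rose and 0 fell, with *Trp53inp1* at -0.70 (edgeR adjusted p = 0.27), *Phlda3* at 0.46, *Zmat3* at 0.35, *Mdm2* at 0.25, *Trp53* at -0.15 and *Sesn1* at -0.34. That test called 624 genes in all (436 higher, 188 lower), among them 3 higher and 0 lower of the other p53 targets and 0 regulators. At an adjusted p under 0.01, 2682 genes were called (1631 higher, 1051 lower), and *Trp53* (-0.15), *Zmat3* (0.35) and *Sesn1* (-0.34) were lost, leaving 1 member lower. Scaling to spike-in counts called 2524 genes (1339 higher, 1185 lower) and 10 other targets higher, and lost *Trp53* (-0.20) and *Mdm2* (0.21). Median shifts over all genes lay between -0.0415 and 0.00459 under the 4 scalings. Without a filter on low counts, 5 regulators rose.

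Leaving out 1 sample at a time gave 3234 to 4540 genes called (1911 to 2507 higher, 1279 to 2033 lower), 2 to 3 members higher and 1 to 4 lower, 12 to 16 other targets higher and 2 to 3 lower, and 0 to 2 regulators lower. The 2 regulators appeared without *Abat* cKO replicate 1, and 1 member remained lower without WT replicate 1 or without *Abat* cKO replicate 2. Changes then ranged from -0.17 to -0.13 for *Trp53*, 0.23 to 0.27 for *Mdm2*, -0.21 to -0.05 for *Mdm4*, 0.09 to 0.15 for *Ccng1*, -0.74 to -0.62 for *Trp53inp1*, 0.24 to 0.41 for *Zmat3* and -0.45 to -0.26 for *Sesn1*. *Xpc*, not called, ranged from -0.11 to 0.00, the latter without *Abat* cKO replicate 1. With WT replicate 3 and *Abat* cKO replicate 1 both left out, a choice added after the data were seen, *Mdm4* (-0.16) and *Ccng1* (0.12) passed and 2 regulators fell, while calls over the whole table rose to 5164 (2748 higher, 2416 lower).

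Replicate numbers are shared by the genotypes but did not pair the samples (correlations of -0.287, 0.116 and -0.284). A replicate block gave *Trp53* -0.15 (edgeR adjusted p = 0.067) and lost it, and kept the calls of the other 5 called members. The causes were not tested.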
